A study of Mus musculus with 16 samples.

Results

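The 10 genes described here are known targets of p53: Cdkn1a, Mdm2, Bax, Aen, Ccng1, Phlda3, Zmat3, Eda2r, Trp53inp1 and Sesn1. They were chosen by name with earlier results of these data known, so their counts beside those of all genes are a description. All 10 were present among the 53714 genes counted in 16 mouse livers. Each library is the polyadenylated RNA of the liver of a male mouse aged 9 weeks. All 16 samples are recorded as the strain C57BL/6 Slc25a47tm1c(EUCOMM)Hmgu, a conditional allele, and differ in the genotype recorded for hepatocytes. Slc25a47 encodes a liver-enriched carrier of the inner mitochondrial membrane. The groups are fed Slc25a47hep-/- mice (fed KO), fed Slc25a47hep+/+ mice (fed WT), Slc25a47hep-/- mice after an overnight fast (fasted KO) and Slc25a47hep+/+ mice after an overnight fast (fasted WT), with 4 samples in each. The line or promoter that removes the gene from hepatocytes is not given in the labels, nor are litters. The labels do not say in words that each library is a separate animal, so the p-values measure the spread between these samples. The title of the study ties the gene to mitochondrial function and fibrosis of the liver, and the comparisons below ask how p53 targets stood with and without it in either feeding state.

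p53, encoded by Trp53 in the mouse, is a transcription factor that is held at a low level by the ubiquitin ligase Mdm2 and that accumulates after DNA damage and other stresses. It binds a response element built from a pair of similar half-sites and raises the transcription of genes that stop the cell cycle, start apoptosis, restrain growth signalling or feed back on p53 itself. p53 is controlled mainly after translation, and some of its targets, Cdkn1a among them, can also be induced without it. In the liver, hepatocytes rarely divide, and p21, the product of Cdkn1a, is among the best known p53 targets there.

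Promoter sequences were available from RefSeq (GRCm38.p6) for 8 of the 10 genes, with 11 windows of 300 bases that run from 250 bases before to 50 bases after a transcription start. Zmat3 and Trp53inp1 were not in that table. The windows were searched for the p53 response element consensus, taken as 2 half-sites of 10 letters with at most 3 mismatches in all, the central C and G of each half-site kept, and 0 or 1 base between them. The element is palindromic, so a single search covers both strands. These search settings were chosen after the windows had been looked at. With them 5 elements were found, 1 in each of 5 genes; the Aen element lies in both of its overlapping windows. Of all 32851 windows 928 hold a match (2.82%), and because the settings were chosen with the windows of the 10 genes in view, nothing is read from the difference. The matches are shown because the element is the DNA feature that p53 targets are known for; bases that fit the consensus are in capitals.
Cdkn1a, chr17:29090928-29090947, forward strand: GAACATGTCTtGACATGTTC
Ccng1, chr11:40755462-40755481, reverse strand: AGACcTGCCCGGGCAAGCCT
Bax, chr7:45467079-45467099, reverse strand: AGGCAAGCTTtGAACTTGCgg
Aen, chr7:78895937-78895956, forward strand: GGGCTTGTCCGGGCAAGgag
Sesn1, chr10:41887266-41887285, forward strand: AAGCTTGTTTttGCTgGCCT

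The Cdkn1a element begins 51 bases before the first RefSeq start and has 1 mismatch; the window of the second Cdkn1a start holds no match. The Ccng1 element begins 195 bases before the start and also has 1 mismatch. The Bax element begins 201 bases before the start, with 2 mismatches and 1 base between the half-sites. The Aen element has 3 mismatches and lies between the first start, which it follows by 10 bases, and the second, which it precedes by 121 bases. The Sesn1 element has 3 mismatches and lies 173 bases before the second of its RefSeq starts. A half-site without mismatch stood in 7 windows of 6 of the genes, Mdm2 included and Aen counted with both overlapping windows; 8.36% of all windows hold one. No match in a window says only that these letters are absent from it. The whole windows of Cdkn1a and Ccng1, the genes with the closest matches, and of Aen, which had the smallest p-value of the 10 genes in fasted livers, show where the element (capitals) sits, 5′ to 3′ on the strand of the gene.
Cdkn1a, chr17:29090729-29091028, forward strand: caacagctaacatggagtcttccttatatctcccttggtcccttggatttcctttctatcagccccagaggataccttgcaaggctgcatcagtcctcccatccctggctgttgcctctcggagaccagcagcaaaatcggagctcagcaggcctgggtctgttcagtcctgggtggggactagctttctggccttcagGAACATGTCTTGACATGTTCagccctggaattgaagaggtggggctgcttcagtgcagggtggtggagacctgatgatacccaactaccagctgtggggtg
Ccng1, chr11:40755237-40755536, reverse strand: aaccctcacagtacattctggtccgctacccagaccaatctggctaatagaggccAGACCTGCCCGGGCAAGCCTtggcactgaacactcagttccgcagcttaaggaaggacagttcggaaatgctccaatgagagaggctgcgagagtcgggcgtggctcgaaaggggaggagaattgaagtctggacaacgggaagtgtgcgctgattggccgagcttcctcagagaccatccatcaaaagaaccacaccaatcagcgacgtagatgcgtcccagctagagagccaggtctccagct
Aen, chr7:78895677-78895976, forward strand: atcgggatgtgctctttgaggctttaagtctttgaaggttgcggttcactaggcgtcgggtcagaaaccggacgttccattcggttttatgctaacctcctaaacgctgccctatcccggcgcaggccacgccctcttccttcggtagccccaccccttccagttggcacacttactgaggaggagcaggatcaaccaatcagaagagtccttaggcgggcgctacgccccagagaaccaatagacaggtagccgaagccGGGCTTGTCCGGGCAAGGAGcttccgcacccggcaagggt

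Gene counts summed to 19.6 to 27.3 M in each library. Of the 53714 genes, 13905 had enough reads to be tested, all 10 p53 targets among them. Slc25a47 itself, on chromosome 12 from 108836046 to 108856815, was at 81.8 to 153 CPM (counts per 1000000 gene counts, TMM-scaled) in fed KO livers and 461 to 836 CPM in fed WT livers, and at 163 to 331 CPM in fasted KO livers and 855 to 1139 CPM in fasted WT livers. Hepatocyte markers were abundant in every group, with summed levels of 88363 CPM or more. Of 9 hepatocyte markers 4 were lower in KO in each state (2 in each with library totals, and 3 fasted without fasted WT replicates 2 and 4), against 16.9% of all genes fed and 14.5% fasted. With library totals 6.58% of all genes were lower fed and 6.49% fasted, and without those replicates 1639 of 14345 fasted. Of 10 hepatic stellate cell markers 9 were higher in fed KO than in fed WT livers by edgeR at an adjusted p under 0.05, with sums of 602 to 684 CPM in fed KO and 419 to 501 CPM in fed WT. In the fasted state 5 of 10 were higher (3 without fasted WT replicates 2 and 4, 8 with library totals), with sums of 598 to 655 CPM in fasted KO and 458 to 497 CPM in fasted WT. Of all genes 14.0% were higher fed and 13.8% fasted (35.1% and 30.9% with library totals, 1558 of 14345 fasted without those replicates). Higher in each state were 0 of 9 endothelial, 1 of 10 macrophage, 0 of 7 lymphocyte and 0 of 6 bile duct cell markers. With library totals these were 4, 6, 0 and 4 fed and 4, 4, 0 and 0 fasted. None of the defining stellate markers was at 0 in any group, and their part in the results below was not tested. In whole liver, fewer cells of a type and less RNA per cell cannot be told apart. Transcripts of the exocrine pancreas stood out in 2 fasted WT libraries, with a sum of 1850 CPM in replicate 2 and of 512 CPM in replicate 4, against at most 80.2 CPM in any other library. Reads placed at several loci made up 32.0% to 39.3% of all counts in KO libraries and 40.4% to 45.8% in WT libraries, and the part of this difference was not tested either.

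The 10 genes together took 440 ± 93.0 counts per 1000000 gene counts in fed KO livers and 249 ± 13.2 in fed WT livers (SD, n = 4 each). In the fasted state they took 619 ± 130 in fasted KO livers and 260 ± 48.8 in fasted WT livers. Much of this sum is Trp53inp1, which had the highest level per kilobase of exon in every group, at 33.0 ± 9.26 CPM per kb in fed KO, 18.04 ± 3.23 in fed WT, 57.4 ± 12.03 in fasted KO and 23.6 ± 7.63 in fasted WT. Cdkn1a and Ccng1 held the next 2 places per kilobase in each group. In fasted KO livers Cdkn1a, at 22.1 ± 7.53 CPM per kb, stood ahead of Ccng1 at 16.9 ± 2.92, and in the other groups Ccng1 stood ahead of Cdkn1a; the ranges of mean ± SD of these neighbours touch in all 4 groups. Mdm2 and Bax followed, then Sesn1 and Aen, and then Zmat3. Phlda3 and Eda2r were lowest, with 3 to 30 and 4 to 88 counts per library, so their values carry the largest counting error of the 10.

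The genes also differed in how much the libraries of a group varied. The coefficient of variation within a group was 4.02% to 8.70% for Mdm2 and 8.56% to 17.3% for Ccng1. It was 30.4% to 41.5% for Cdkn1a, although Cdkn1a had at least 237 counts in every library. A single fed KO liver, replicate 3, had the highest value of its group for 7 of the 10 genes, and fasted KO replicate 4 had the highest of its group for 7 of the 10.

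**Figure D1:**
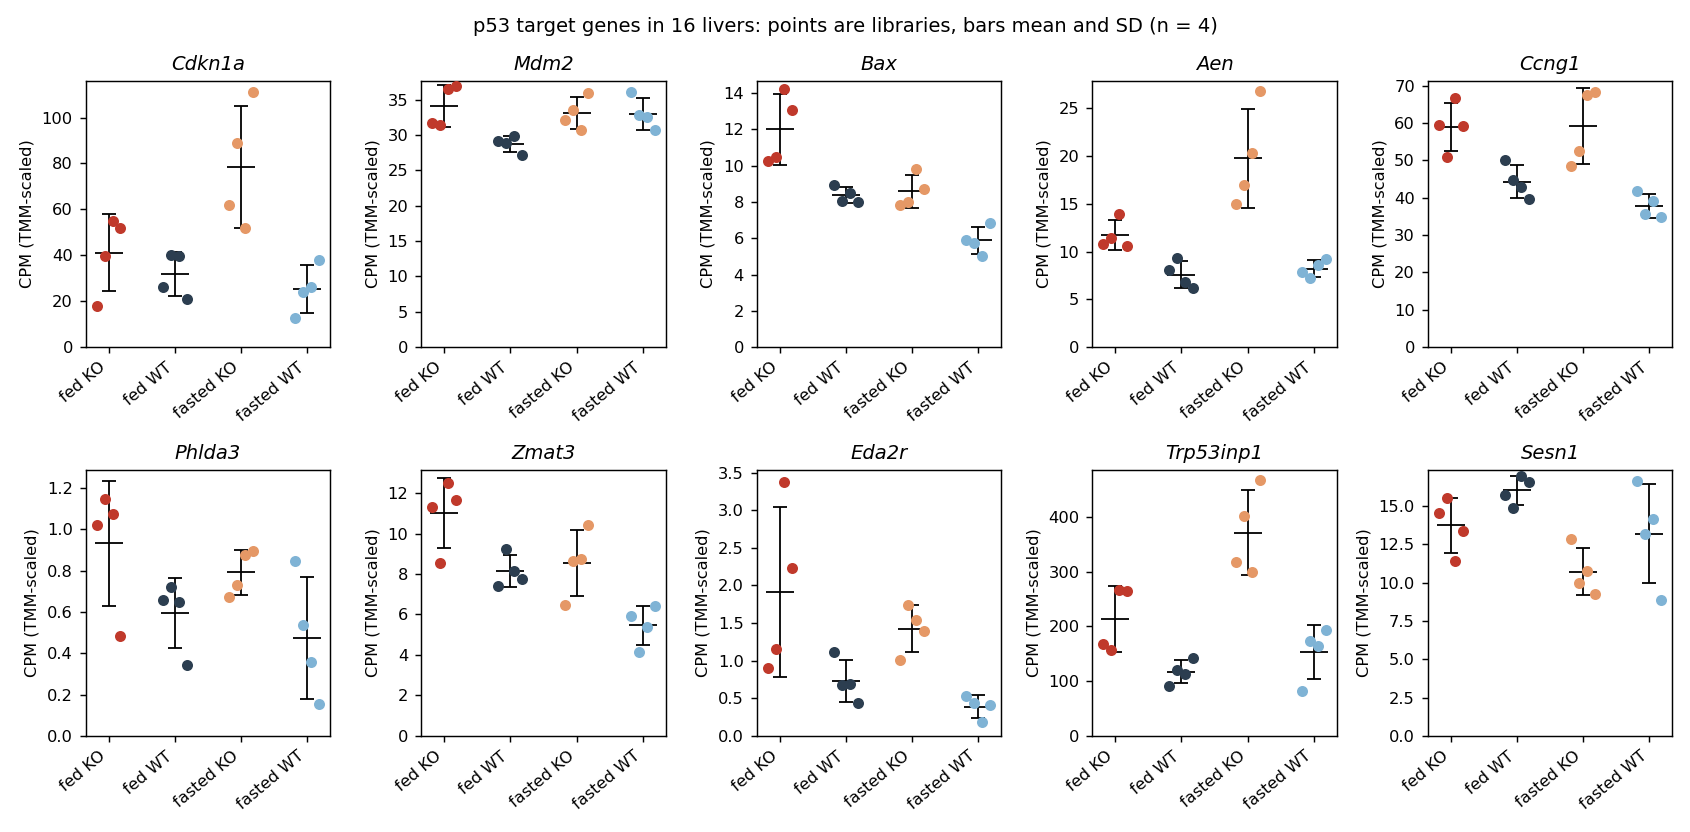
Level of each of the 10 p53 target genes in CPM (TMM-scaled, linear axes from 0) in the 16 livers; points are libraries, bars the mean and SD of 4. Bax, Aen, Ccng1 and Trp53inp1 in KO livers lie above all WT livers of the same feeding state, while the KO and WT livers of Sesn1 overlap.

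In fed livers, 7 of the 10 genes were higher in KO than in WT and 0 were lower (edgeR quasi-likelihood test, Benjamini-Hochberg adjusted p under 0.05 over 13905 genes). Across all genes tested, 14.0% were higher, 16.9% lower and 30.9% changed in either direction. The 7 were Mdm2, Bax, Aen, Ccng1, Zmat3, Eda2r and Trp53inp1. The median log2 fold change of the 10 genes was 0.48, against -0.01 for all genes tested. As the 10 were chosen with earlier results known, values of all genes here and below are background and not a test. In 5 genes, Mdm2, Bax, Aen, Ccng1 and Trp53inp1, all 4 fed KO livers lay above all 4 fed WT livers, an order that 12.9% of all genes show.

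In fasted livers, 7 of the 10 were again higher in KO and 0 lower, against 13.8% higher and 14.5% lower among all genes (28.3% in either direction). These were Cdkn1a, Bax, Aen, Ccng1, Zmat3, Eda2r and Trp53inp1. The median log2 fold change was 0.70, against 0.01 for all genes. In all 7 the fasted KO livers lay above every fasted WT liver, an order that 14.2% of all genes show. A total of 6 genes, Bax, Aen, Ccng1, Zmat3, Eda2r and Trp53inp1, were called higher in both states, as were 7.34% of all genes. The fed and the fasted comparison use different libraries but share the fit, with its scaling, filter and estimate of spread. Their calls are therefore not fully independent.

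**Figure D2:**
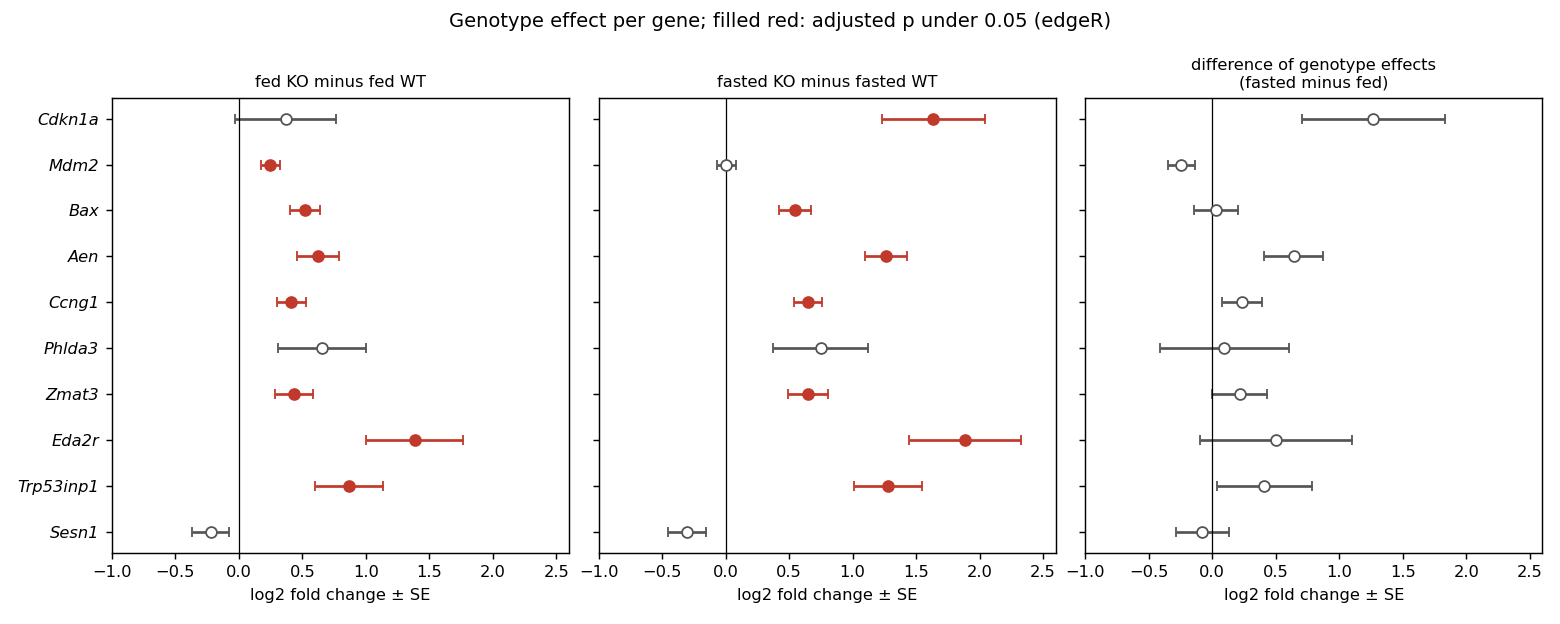
Log2 fold change with its standard error (x axis) for each gene in fed livers, in fasted livers and for the difference of the 2 genotype effects; filled red points passed an adjusted p of 0.05. Bax, Aen, Ccng1, Zmat3, Eda2r and Trp53inp1 are red in the fed and the fasted panel, Mdm2 is red in the fed panel and Cdkn1a in the fasted one, and the panel of differences holds no red point.

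Mdm2 encodes the ligase that marks p53 for degradation, and p53 induces it in turn. Its level was 31.7, 31.4, 36.5 and 37.0 CPM in the fed KO livers and 29.1, 28.9, 29.9 and 27.2 CPM in the fed WT livers. The groups did not overlap, and the difference was small (log2 fold change 0.25 ± 0.07 SE, edgeR adjusted p = 0.0178). In fasted livers Mdm2 was at 32.1, 33.6, 30.7 and 36.0 CPM in KO and 36.0, 32.8, 32.5 and 30.6 CPM in WT. There the ranges were nearly the same (0.00 ± 0.07, edgeR adjusted p = 0.974). Mdm4, the relative of Mdm2 that binds p53 without degrading it, averaged 52.6 ± 4.03 CPM in fed KO and 52.2 ± 4.35 CPM in fed WT, and 64.1 ± 3.71 CPM in fasted KO and 56.0 ± 5.62 CPM in fasted WT (SD, n = 4). It passed the test in neither state (edgeR adjusted p = 0.942 fed and 0.081 fasted), but in both with library totals (0.0366 and 0.0022).

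The transcript of p53 itself was read from Trp53, on chromosome 11 from 69580359 to 69591873. It was at 28.4, 27.2, 27.0 and 24.5 CPM in fed KO livers and 22.2, 26.1, 19.5 and 19.8 CPM in fed WT livers, with 1 fed WT liver inside the KO range (log2 fold change 0.29 ± 0.11, edgeR adjusted p = 0.0572; it was 0.00224 with library totals and 0.0176 without fed WT replicate 2). Trp53 was at 23.0, 25.5, 26.7 and 33.0 CPM in fasted KO livers and 13.9, 17.3, 16.8 and 17.8 CPM in fasted WT livers. The fasted groups did not overlap, and Trp53 was higher in fasted KO (0.72 ± 0.11, edgeR adjusted p = 0.000125). The difference between its fasted and fed genotype effects did not pass (0.43 ± 0.16, edgeR adjusted p = 0.18).

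Cdkn1a encodes p21, an inhibitor of cyclin-dependent kinases, and lies on chromosome 17 from 29090976 to 29100727. Its level was 18.03, 39.7, 55.1 and 51.8 CPM in the fed KO livers and 26.3, 40.1, 39.9 and 21.0 CPM in the fed WT livers. The fed groups overlapped, with the lowest of all 8 values in a KO liver (log2 fold change 0.37 ± 0.40, edgeR adjusted p = 0.516). In the fasted state Cdkn1a was at 62.1, 89.1, 51.9 and 111 CPM in KO livers and 12.6, 24.0, 26.3 and 38.1 CPM in WT livers. Every fasted KO liver lay above every fasted WT liver, a 3.11-fold difference (1.64 ± 0.41, edgeR adjusted p = 0.00946). Of the Cdkn1a exon bases, 273 overlap a gene annotated on the opposite strand, AC167363.2, and the strand setting of the counting is not given in the sources used here.

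Ccng1 encodes cyclin G1, an atypical cyclin that works with a protein phosphatase and Mdm2, and lies on chromosome 11 from 40748552 to 40755311 on the reverse strand. It was at 59.4, 51.0, 66.6 and 59.1 CPM in fed KO livers and 50.2, 44.7, 42.8 and 39.6 CPM in fed WT livers. The groups were close but did not overlap (log2 fold change 0.41 ± 0.11, edgeR adjusted p = 0.00891). In fasted livers Ccng1 was at 48.6, 52.4, 67.7 and 68.4 CPM in KO and 41.9, 35.7, 39.1 and 34.8 CPM in WT. The fasted groups were again apart (0.65 ± 0.11, edgeR adjusted p = 0.000306). A match with 1 mismatch stood in the promoter window of Ccng1, as in the first window of Cdkn1a, and nothing is read from it.

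Bax encodes the pore-forming protein of the outer mitochondrial membrane that releases cytochrome c in apoptosis, and lies on chromosome 7 from 45461697 to 45466898 on the reverse strand. It was at 10.2, 10.5, 14.2 and 13.1 CPM in fed KO livers and 8.93, 8.04, 8.49 and 7.99 CPM in fed WT livers, without overlap (log2 fold change 0.52 ± 0.12, edgeR adjusted p = 0.00312). In fasted livers Bax was at 7.81, 8.02, 9.82 and 8.74 CPM in KO and 5.89, 5.76, 5.05 and 6.82 CPM in WT. The 2 differences were of nearly equal size on the log2 scale, as the fasted one was 0.55 ± 0.13 (edgeR adjusted p = 0.00283). Bax shares 192 exon bases with Gm45808 on the same strand, for which 0 counts were recorded.

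Aen, on chromosome 7 from 78895854 to 78911209, encodes an exonuclease named for enhancing apoptosis. It was at 10.9, 11.5, 14.0 and 10.6 CPM in fed KO livers and 8.12, 9.31, 6.77 and 6.18 CPM in fed WT livers, without overlap (log2 fold change 0.62 ± 0.17, edgeR adjusted p = 0.00852). In fasted livers Aen was at 15.0, 16.9, 20.3 and 26.8 CPM in KO and 7.91, 7.21, 8.57 and 9.20 CPM in WT. The lowest fasted KO liver stood well above the highest fasted WT liver, and the difference was 2.40-fold (1.27 ± 0.16, edgeR adjusted p = 2.23e-05).

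Trp53inp1, on chromosome 4 from 11156431 to 11174379, encodes a nuclear protein that promotes p53 activity and also takes part in autophagy. It was at 167, 156, 267 and 264 CPM in fed KO livers and 91.5, 120, 114 and 142 CPM in fed WT livers, without overlap (log2 fold change 0.87 ± 0.27, edgeR adjusted p = 0.0253). In fasted livers it was at 317, 402, 299.7 and 467 CPM in KO and 81.3, 174, 164 and 193 CPM in WT. All fasted KO livers exceeded all fasted WT livers by a wide gap (1.28 ± 0.27, edgeR adjusted p = 0.00302).

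Eda2r, on the X chromosome from 97333840 to 97377216, encodes a receptor of the tumour necrosis factor family for the A2 form of ectodysplasin. It was at 0.897, 1.15, 3.38 and 2.23 CPM in fed KO livers and 1.12, 0.680, 0.696 and 0.441 CPM in fed WT livers. A fed KO liver lay within the WT range, and the estimate leaned on replicate 3 of fed KO (log2 fold change 1.38 ± 0.38, edgeR adjusted p = 0.0107). Without that liver it was 0.94, with an edgeR adjusted p of 0.0642. In fasted livers Eda2r was at 1.01, 1.74, 1.55 and 1.40 CPM in KO and 0.531, 0.431, 0.179 and 0.413 CPM in WT. The fasted groups did not overlap, and the difference was the largest log2 value of the 10 genes (1.89 ± 0.44, edgeR adjusted p = 0.00373), at 4 to 10 counts in each fasted WT library.

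Zmat3, on chromosome 3 from 32334792 to 32366014, encodes a zinc finger protein that binds RNA. It was at 11.3, 8.54, 12.5 and 11.6 CPM in fed KO livers and 7.41, 9.23, 8.16 and 7.75 CPM in fed WT livers, with overlap (log2 fold change 0.43 ± 0.15, edgeR adjusted p = 0.0368). In fasted livers it was at 6.46, 8.63, 8.73 and 10.4 CPM in KO and 5.94, 4.14, 5.36 and 6.41 CPM in WT. The lowest fasted KO value stood just above the highest fasted WT value (0.65 ± 0.16, edgeR adjusted p = 0.00448).

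Phlda3 and Sesn1 passed the test in neither state. Phlda3, on chromosome 1 from 135766119 to 135769136, encodes a small protein that competes with the kinase Akt for membrane lipids. It ranged from 0.485 to 1.15 CPM in fed KO and 0.343 to 0.720 CPM in fed WT livers, and from 0.672 to 0.893 CPM in fasted KO and 0.155 to 0.849 CPM in fasted WT livers. Its log2 estimates, 0.66 ± 0.35 fed and 0.75 ± 0.38 fasted, were as high as those of called genes but wider (edgeR adjusted p = 0.161 and 0.146). Without fasted WT replicate 1, its fasted estimate was 1.17 with an edgeR adjusted p of 0.0389.

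Sesn1, on chromosome 10 from 41809935 to 41908424, encodes a sestrin, which restrains the growth kinase complex mTORC1. It was the single gene of the 10 with a negative estimate in both states. It was at 14.6, 15.6, 11.4 and 13.4 CPM in fed KO livers and 15.7, 14.9, 17.0 and 16.6 CPM in fed WT livers (log2 fold change -0.22 ± 0.15, edgeR adjusted p = 0.265). In fasted livers Sesn1 was at 12.8, 9.97, 10.7 and 9.28 CPM in KO and 16.6, 13.2, 14.2 and 8.84 CPM in WT, where the lowest of all 8 values came from a WT liver (-0.30 ± 0.15, edgeR adjusted p = 0.142). That liver, fasted WT replicate 4, is one of the 2 with pancreatic transcripts. Without both of them Sesn1 was called lower in fasted KO (-0.52, edgeR adjusted p = 0.0117), and likewise without replicate 4 alone (-0.45, edgeR adjusted p = 0.0108) or without fasted KO replicate 1 (-0.43, edgeR adjusted p = 0.04998). With library totals the Sesn1 estimates were -0.00 in fed and -0.12 in fasted livers.

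Single libraries moved the fed calls more often than the fasted ones. When each of the 16 libraries was left out in turn, Bax, Aen and Ccng1 kept an edgeR adjusted p under 0.05 in fed livers in all 16 fits. Without fed KO replicate 3 the fed count was 3 rather than 7, and without fed KO replicate 4 it was 4. The fed call of Zmat3 was lost in 6 of the 16 fits (without fed KO replicate 1, 3 or 4 or fed WT replicate 1, 3 or 4), that of Trp53inp1 in 5 (fed KO 3 or 4, fed WT 1, 2 or 3), that of Mdm2 in 3 (fed KO 3 or 4, fed WT 4) and that of Eda2r in 1 (fed KO 3). With no filter on low counts Mdm2 and Trp53inp1 were at edgeR adjusted p = 0.0519 and 0.0604 in fed livers. In fasted livers all 7 genes kept their call in all 16 fits, and they kept it without both fasted WT libraries with pancreatic transcripts.

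**Figure D3:**
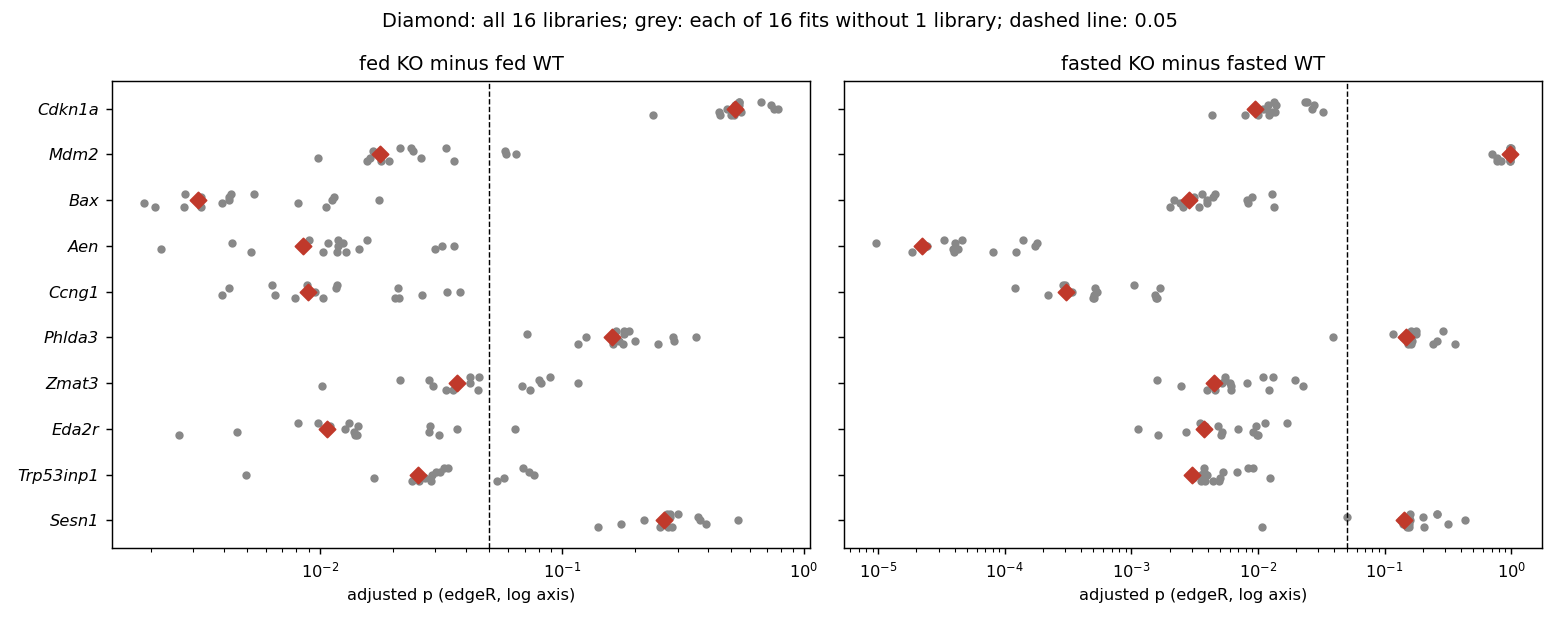
Adjusted p (log axis) of each gene with all 16 libraries (red diamonds) and in each of 16 fits without 1 library (grey points), for fed and fasted livers; the dashed line marks 0.05. In fed livers the points of Mdm2, Zmat3, Eda2r and Trp53inp1 cross the line, and in fasted livers the 7 called genes stay left of it.

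The difference between the fasted and the fed genotype effect was tested for each gene, since Cdkn1a was called in fasted livers and Mdm2 in fed livers alone. None of the 10 passed (0 by edgeR at an adjusted p under 0.05 and 0 by DESeq2), against 1.70% of all genes (1.07% with a larger and 0.633% with a smaller value in the fasted state). At an unadjusted p under 0.05, 3 of the 10 passed, against 17.1% of all genes. The difference was 1.27 ± 0.56 log2 units for Cdkn1a (edgeR adjusted p = 0.277), 0.64 ± 0.23 for Aen (edgeR adjusted p = 0.173) and -0.24 ± 0.11 for Mdm2 (edgeR adjusted p = 0.249). The genotype effects on Cdkn1a and Mdm2 are therefore not shown to differ between feeding states, and the intervals are too wide to call them alike.

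Between fed and fasted livers 3 of the 10 genes were called in each genotype. That is no larger than the share of all genes called, 41.4% in KO and 34.5% in WT livers. In KO livers Aen (log2 fold change 0.75 ± 0.16, edgeR adjusted p = 0.00107) and Trp53inp1 (0.80 ± 0.27, edgeR adjusted p = 0.0273) were higher after the fast and Bax was lower (-0.48 ± 0.12, edgeR adjusted p = 0.00346). Among all genes 21.1% were higher and 20.3% lower, 41.4% in all. Cdkn1a averaged 78.5 ± 26.7 CPM in fasted KO livers and 41.1 ± 16.8 CPM in fed KO livers (SD, n = 4), and with that spread the difference was not called (0.93 ± 0.39, edgeR adjusted p = 0.0761; 0.0346 without robust estimation). In WT livers Mdm2 was higher after the fast (0.20 ± 0.08, edgeR adjusted p = 0.0485), and Bax (-0.51 ± 0.13, edgeR adjusted p = 0.00405) and Zmat3 (-0.58 ± 0.16, edgeR adjusted p = 0.00847) were lower, against 16.2% higher and 18.3% lower among all genes (34.5% in all). Trp53 was also lower in fasted than in fed WT livers (-0.41 ± 0.11, edgeR adjusted p = 0.0086). The WT call of Mdm2 was lost in 10 of the 16 fits without 1 library, and the KO call of Trp53inp1 in 4 (fed KO 1 or 2, fasted KO 2 or 4). Sesn1, at -0.36 ± 0.15 in KO livers (edgeR adjusted p = 0.0591), was called lower in 4 of those fits and Zmat3 in 3; without fasted WT replicate 1, Trp53inp1 was called higher and Sesn1 lower in WT livers. The fasting comparisons share their libraries with the genotype comparisons.

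Among 38 further genes known as p53 targets, of which 37 could be tested, 11 were higher and 3 lower in fed KO livers, and 10 were higher and 3 lower in fasted KO livers. Their median log2 fold change was 0.08 fed and 0.09 fasted, close to that of all genes. These shares can be set against 14.0% and 13.8% of all genes called higher. Of the 37 genes 3 reached the filter on low counts in fewer than 4 WT libraries, Psrc1 and Trp53cor1 in 0 of them. With no filter 9 of 38 were higher and 2 lower fed, and 9 higher and 3 lower fasted. Of all 25622 genes then tested 1607 were higher fed and 1748 fasted. With libraries scaled by their totals the counts of higher genes were 18 and 15 of 37, against 35.1% and 30.9% of all genes. Perp, a membrane protein of apoptosis and cell junctions, averaged 123 ± 8.53 CPM in fed KO and 80.3 ± 3.78 CPM in fed WT livers (log2 fold change 0.61 ± 0.08, edgeR adjusted p = 1.03e-05). In fasted livers Perp averaged 118 ± 11.0 CPM in KO and 118 ± 7.95 CPM in WT.

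Tigar, an enzyme that lowers the flux of glycolysis, was higher in KO in both states (0.65 ± 0.11 fed, edgeR adjusted p = 0.000242; 0.86 ± 0.11 fasted, edgeR adjusted p = 1.5e-05). Of the further targets, Tigar, Bbc3, Dcxr, Gtse1, Pltp and Rps27l had a promoter window with a response element match, and nothing is read from these matches. Ptp4a3, a phosphatase, was higher in both as well (0.70 ± 0.11 fed, edgeR adjusted p = 0.000102; 0.64 ± 0.11 fasted, edgeR adjusted p = 0.00024). Fdxr, the mitochondrial ferredoxin reductase, averaged 24.7 ± 2.54 CPM in fed KO and 16.8 ± 1.98 CPM in fed WT livers (0.56 ± 0.10, edgeR adjusted p = 0.000507), and 15.5 ± 1.82 CPM in fasted KO and 15.8 ± 0.991 CPM in fasted WT livers. Gadd45a, which halts the cycle after damage, averaged 7.34 ± 2.68 CPM in fed KO and 1.74 ± 1.07 CPM in fed WT livers (2.09 ± 0.46, edgeR adjusted p = 0.00382), and 14.2 ± 5.33 CPM in fasted KO and 1.13 ± 0.741 CPM in fasted WT livers (3.65 ± 0.49, edgeR adjusted p = 9.87e-05). Gadd45a is also known as a target of ATF4.

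Trp53cor1 is the long noncoding RNA lincRNA-p21, which p53 induces and which lies on chromosome 17 from 29057430 to 29079179, 11797 bases from the start of Cdkn1a. It had 22, 12, 37 and 32 counts in the fasted KO libraries and 1, 1, 1 and 1 in the fasted WT libraries. The ratio of its summed counts, each sum divided by the summed TMM-scaled library sizes, was 20.8 (exact 95% interval 7.87 to 77.6, counting error only). For this difference edgeR gave an adjusted p of 1.5e-05. Trp53cor1 entered the test through fasted KO: all 4 fasted KO libraries, 1 fed KO library and 0 WT libraries reached the filter on low counts (0.446 CPM). With no filter its fasted log2 fold change was 4.24 (edgeR adjusted p = 1.88e-07). In fed livers it had 4, 11, 5 and 3 counts in KO and 3, 1, 1 and 1 in WT, a ratio of 3.42 (exact 95% interval 1.35 to 10.3), which did not pass (edgeR adjusted p = 0.0506). The difference between its fasted and fed genotype effects did not pass (2.55 ± 1.03, edgeR adjusted p = 0.22), and the fed call appeared with DESeq2 size factors (edgeR adjusted p = 0.0498) and with library totals (0.0222). Cdkn1a, its neighbour, was likewise called in fasted livers and not in fed ones. For Cdkn1a too the difference between the states did not pass (edgeR adjusted p = 0.277), so a pattern particular to fasting is shown for neither.

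Of 23 genes known to regulate p53, 20 could be tested; 1 was higher and 2 lower in fed KO livers, and 5 were higher and 0 lower in fasted KO livers, against 14.0% higher and 16.9% lower of all genes fed and 13.8% and 14.5% fasted. Their median log2 fold change was -0.02 fed and 0.13 fasted. Scaled by library totals, which moved the median of all genes as well, 10 of them were called higher in fed KO and 11 in fasted KO livers, with none called lower, against 35.1% and 30.9% of all genes called higher. Atr, a kinase that responds to stalled replication, was higher in KO in both states (0.94 ± 0.10 fed, edgeR adjusted p = 2.56e-06; 0.73 ± 0.10 fasted, edgeR adjusted p = 2.76e-05). Trp53bp1, a damage-response scaffold, was lower in fed KO livers (-0.41 ± 0.10, edgeR adjusted p = 0.00537), as was the deacetylase Sirt1 (-0.23 ± 0.08, edgeR adjusted p = 0.0463). With library totals neither passed (Trp53bp1 -0.18, edgeR adjusted p = 0.207; Sirt1 -0.00, edgeR adjusted p = 0.97). Chek1, the kinase downstream of Atr, was at 0.80 ± 0.31 in fed livers and did not pass (edgeR adjusted p = 0.0569; 0.0138 with library totals). In fasted livers the kinase Trp53rka (0.51 ± 0.13, edgeR adjusted p = 0.0057) and the acetyltransferase Ep300 (0.30 ± 0.09, edgeR adjusted p = 0.0182) were higher in KO. The Ep300 call was lost without fasted KO replicate 4 (edgeR adjusted p = 0.0716) and without fasted WT replicate 1 (0.0621) or 3 (0.0537).

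p53, largely through p21, is known to lower genes of the cell cycle, and these were examined as a list of 24, of which 23 could be tested. In fed KO livers 17 were higher and 0 lower than in fed WT, with a median log2 fold change of 1.64, and in fasted KO livers 8 were higher and 0 lower, with a median of 1.05. Of all genes 14.0% were higher fed and 13.8% fasted. Several of the 23 entered the test through KO livers: 7 reached the filter in fewer than 4 of the 8 WT libraries, and Ube2c, Ccnb1 and Bub1 in 0 of them, so the counts and medians over the tested genes describe these genes and support no more. With no filter 17 of 24 were higher fed and 4 of 24 fasted, against 1607 and 1748 of all 25622 genes then tested. The genes called were all higher in KO, and any part of p53 in this was not tested. Ube2c, a ubiquitin conjugase of mitotic exit, averaged 2.29 ± 1.23 CPM in fed KO and 0.359 ± 0.0666 CPM in fed WT livers (2.66 ± 0.42, edgeR adjusted p = 0.000144). Cdc20 (2.87 ± 0.50, edgeR adjusted p = 0.000586), Ccnb1 (2.67 ± 0.54, edgeR adjusted p = 0.00152) and Ccnb2 (1.98 ± 0.41, edgeR adjusted p = 0.00171), which drive mitosis, were also higher in fed KO. In fasted livers the mitotic kinase Aurka averaged 1.29 ± 0.233 CPM in KO and 0.252 ± 0.201 CPM in WT (2.32 ± 0.49, edgeR adjusted p = 0.00157), and Ube2c, Kif20a and Cdk1 were higher in KO as well. With library totals the fasted count was 14 of 23, against 30.9% of all genes. It was 2 of 24 rather than 8 of 23 without both fasted WT libraries with pancreatic transcripts, where 1558 of 14345 genes were higher. After the fast 21 of 23 were lower in KO livers and 7 of 23 in WT livers, the second count being 2 of 24 without those libraries, against 20.3% of all genes lower in KO and 18.3% in WT livers.

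Genes known to respond to ATF4, the factor of the integrated stress response, were counted in the same way. Of 24 such genes 22 could be tested; 16 were higher and 2 lower in fed KO livers, with a median log2 fold change of 1.28, and 18 were higher and 1 lower in fasted KO livers, with a median of 1.89. Among all genes 14.0% were higher and 16.9% lower fed, and 13.8% and 14.5% fasted. Psat1, an enzyme of serine synthesis, averaged 15.8 ± 1.37 CPM in fed KO and 0.647 ± 0.304 CPM in fed WT livers, and 22.6 ± 5.38 CPM in fasted KO and 0.834 ± 0.280 CPM in fasted WT livers. Atf5 (2.05 ± 0.12 fed, 1.68 ± 0.11 fasted), Slc3a2 (1.62 ± 0.11 fed, 2.15 ± 0.11 fasted) and Vldlr (4.63 ± 0.29 fed, 3.74 ± 0.25 fasted) were higher in both states, with edgeR adjusted p-values of 6.29e-08 or less. A response element match stood in 0 of 25 promoter windows of these genes, in 6 of 43 of the further p53 targets and in 2 of 19 of the cell cycle genes; at the share of all windows (2.82%), 0 of 25 is at the background. Whether the p53 targets moved with this stress response was not tested.

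**Figure D4:**
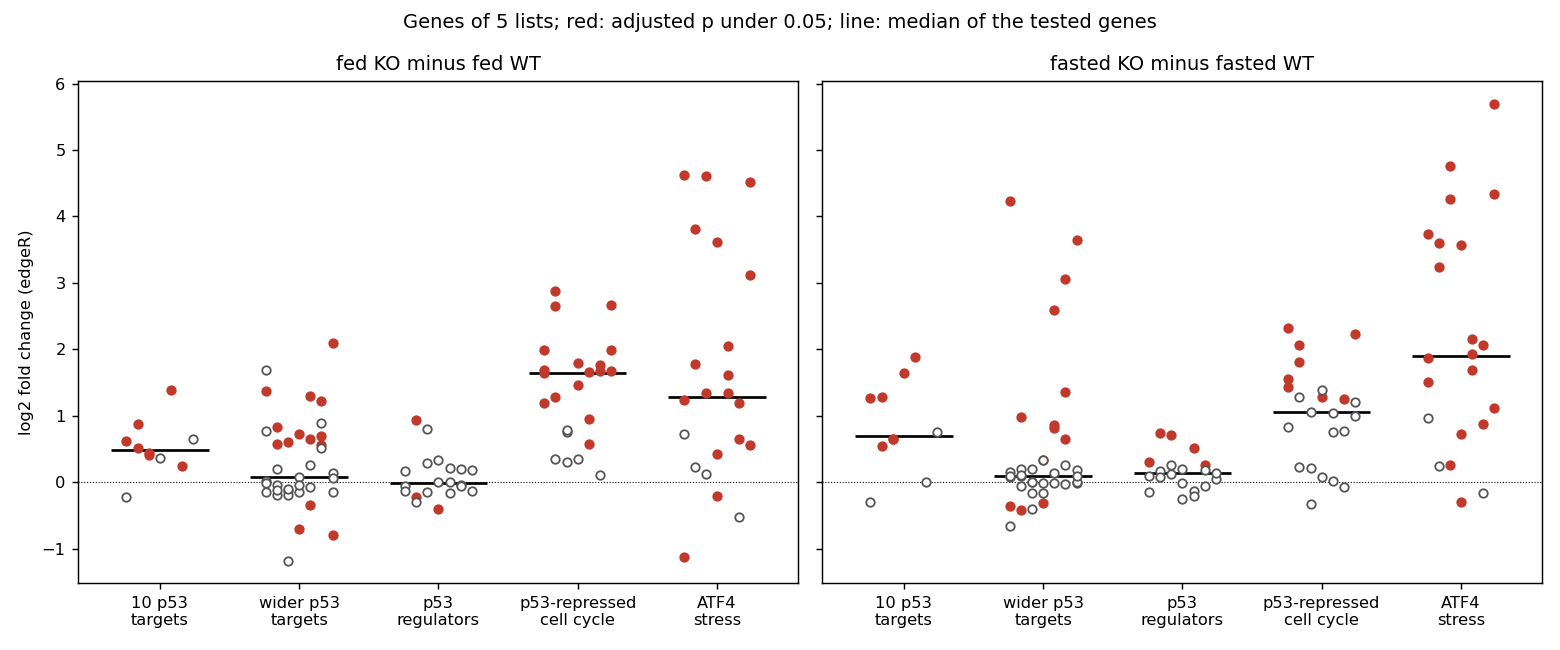
Log2 fold change (y axis) of every tested gene of 5 lists in fed livers (left) and fasted livers (right); red points passed an adjusted p of 0.05 and lines are medians. Medians are 0.48 and 0.70 for the 10 p53 targets and 0.08 and 0.09 for the further p53 targets. They are 1.64 and 1.05 for the cell cycle genes and 1.28 and 1.89 for the ATF4 genes. The lists were chosen with earlier results known, and several cell cycle genes entered the test through KO livers, so the medians are not ranked.

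The relatives of the 10 genes were counted too. Of 14 paralogs, picked by family after the values of the 10 were known, 12 could be tested. In fed KO livers 3 rose and 5 fell; in fasted KO livers 3 rose and 3 fell. All genes also went both ways, with 14.0% higher and 16.9% lower fed and 13.8% and 14.5% fasted. With library totals 5 rose and 3 fell in fed KO livers, against 35.1% of all genes higher and 6.58% lower. The sestrins differed among themselves. Sesn2 averaged 14.9 ± 1.76 CPM in fed KO and 10.02 ± 2.86 CPM in fed WT livers (0.57 ± 0.21, edgeR adjusted p = 0.0458, lost in 9 of the 16 fits without 1 library), and 32.8 ± 9.12 CPM in fasted KO and 16.6 ± 1.30 CPM in fasted WT livers (0.98 ± 0.20, edgeR adjusted p = 0.00167). Sesn3 averaged 28.5 ± 0.720 CPM in fed KO and 40.6 ± 2.55 CPM in fed WT livers, and 18.9 ± 3.16 CPM in fasted KO and 33.3 ± 2.48 CPM in fasted WT livers, and was lower in KO in both states. Trp53inp2, the autophagy relative of Trp53inp1, averaged 139 ± 9.29 CPM in fed KO and 342 ± 61.0 CPM in fed WT livers, and 137 ± 15.8 CPM in fasted KO and 256 ± 41.1 CPM in fasted WT livers. It fell by 1.30 on the log2 scale in fed KO livers (edgeR adjusted p = 1.68e-06). Bak1, which forms pores as Bax does, averaged 6.20 ± 1.18 CPM in fed KO and 8.41 ± 1.17 CPM in fed WT livers, and 7.15 ± 0.404 CPM in fasted KO and 10.3 ± 1.08 CPM in fasted WT livers, and was lower in KO in both states (edgeR adjusted p = 0.0183 fed and 0.00534 fasted), but in neither with library totals (0.225 and 0.0539).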

How the data were processed

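The deposited table holds counts of reads per gene, which the authors made and did not normalize, for 16 liver libraries of stranded poly(A) RNA, per the labels' protocols. The submitters' processing notes name cutadapt 1.8, STAR 2.5.3a, HTSeq 0.9.1 and the build GRCm38. Neither the annotation release nor the strand setting is given in the sources used here. Lines of the table that name no gene were left out; they held 32.0% to 45.8% (several loci), 2.98% to 4.29% (no gene) and 1.05% to 1.65% (more than 1 gene) of all counts. Gene totals were 19.6 to 27.3 M.

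Symbols, positions and exon lengths came from a GENCODE annotation of GRCm38, which matched 53619 of 53714 identifiers. The filter on low counts was filterByExpr (edgeR 4.0.16, R 4.3.3), which kept 13905 genes. All 16 libraries were scaled by TMM, fitted together with 1 mean for each group and tested with the robust quasi-likelihood F test (12 residual degrees of freedom, common biological coefficient of variation 0.138). P-values were adjusted by Benjamini-Hochberg over all genes tested, threshold 0.05; a standard error is the size of the log2 estimate over the root of its F value. CPM was computed here from the deposited counts. The filter was passed by Phlda3 in 13 and Eda2r in 12 libraries, mostly of KO and fed mice, and by the other 8 genes in all 16; all 10 were tested. Tested genes of the other lists that reached the filter in 0 WT libraries are named beside the counts of their list.

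The 10 genes and all gene lists were chosen with earlier results of these data known. Of each list the text names up to 4 genes with the smallest p per genotype comparison, plus Trp53, Mdm4 and Slc25a47; Gadd45a and Tigar are given in both states, and Sesn2, Sesn3, Trp53inp2 and Bak1 were picked after their values were seen. Response elements were counted in RefSeq promoter windows (GRCm38.p6). Alternatives were DESeq2 size factors, the DESeq2 1.42.0 Wald test, library totals, no filter, no robust estimation, only the 8 libraries compared, a block for the replicate number, leaving out every library in turn, both fasted WT libraries with pancreatic transcripts left out, and an adjusted p under 0.01. The procedure was tested on simulated data.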

Additional observations from a re-analysis of the deposited data

Results flagged for a closer look

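Among the further p53 targets, the genotype effect differed between the feeding states by its own test for Perp and Fdxr. For Perp the log2 fold change, KO over WT, was 0.01 ± 0.08 in fasted livers and 0.61 ± 0.08 in fed livers, a difference of -0.60 (-0.6045) with an edgeR adjusted p of 0.0114. Perp averaged 118 ± 11.0 CPM in fasted KO, 118 ± 7.95 CPM in fasted WT, 123 ± 8.53 CPM in fed KO and 80.3 ± 3.78 CPM in fed WT livers (SD, n = 4), so fed WT was the low group. For Fdxr the log2 fold change was -0.03 ± 0.10 in fasted livers and 0.56 ± 0.10 in fed livers, a difference of -0.59 (-0.5865) with an edgeR adjusted p of 0.0469. The Fdxr call was lost with library totals (edgeR adjusted p = 0.0522), with no robust estimation (0.0527), without both fasted WT libraries with pancreatic transcripts (0.144) and in 12 of the 16 fits without 1 library (edgeR adjusted p up to 0.103). The Perp call held in all of these, with an edgeR adjusted p of at most 0.0276. Fdxr averaged 15.5 ± 1.82 CPM in fasted KO, 15.8 ± 0.991 CPM in fasted WT, 24.7 ± 2.54 CPM in fed KO and 16.8 ± 1.98 CPM in fed WT livers, so fed KO was the high group. Among all genes tested 0.633% had a smaller genotype effect in the fasted state by the same test. No library stood apart from the other 3 of its group by Dixon's test in any of the 44 groups examined, although chance alone would be expected to mark about 1 in 20.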

How the results depend on the processing

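The fed and fasted counts of 7 higher genes were 7 each under library totals, DESeq2 size factors and without both fasted WT libraries with pancreatic transcripts. Library totals moved the median log2 fold change of all genes to 0.215 fed and 0.198 fasted, and its calls were 4886 higher and 915 lower fed (1948 and 2351 with TMM) and 4301 and 902 fasted (1918 and 2011 with TMM). At an adjusted p under 0.01 the fed count was 3, and without 1 library it was 3 to 7. The fasted count of lower genes was 1 without both pancreatic libraries and 0 to 1 without 1 library. In WT livers after the fast, the count of higher genes was 0 under library totals, no filter, the replicate block, without both pancreatic libraries and at 0.01, and 0 to 1 without 1 library. In KO livers after the fast, the count of higher genes was 1 with no filter and at 0.01 and 1 to 2 without 1 library. The count of lower genes there was 3 under library totals, 2 under the replicate block, with only the libraries compared and without both pancreatic libraries, and 1 to 2 without 1 library. Same-numbered samples did not deviate together (r of -0.174 to 0.251, over 0.1 in 3 of 24 pairs), so the numbers were not taken as pairs. The share of the 10 genes in fed WT livers was 263 counts per 1000000 with TMM scaling.

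Some estimates that were not called turned sign. Fasted Mdm2 was -0.0105 with DESeq2 size factors, -0.00892 with the DESeq2 Wald test, -0.0492 without both pancreatic libraries and -0.0378 to 0.0491 without 1 library. In KO livers after the fast, Ccng1 was -0.0726 under library totals and -0.0688 to 0.0728 without 1 library, and Eda2r, at -0.42 with all libraries, was -0.66 to 0.0186 without 1 library, the highest without fed KO replicate 3. The difference of genotype effects was -0.00574 for Bax under library totals and -0.0405 to 0.12 without 1 library. It was -0.23 for Phlda3 without both pancreatic libraries and -0.19 to 0.52 without 1 library, and -0.23 to 0.0493 for Sesn1 without 1 library. The causes were not tested. Counts of 3 to 30 per library limit Phlda3, and 4 to 88 limit Eda2r.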

Other observations

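Outside every list, the genes whose levels ran most like the 10 p53 targets over the 16 libraries were Anxa2 (Pearson r = 0.949 with the mean of the 10 standardized log2 CPM values), Zmynd19 (0.939), Ttc23 (0.936), Rpl12 (0.927) and Arpp19 (0.927). These values describe 16 libraries that fall into 4 groups. Anxa2, a calcium-dependent membrane protein, averaged 40.1 ± 8.21 CPM in fed KO and 14.4 ± 1.60 CPM in fed WT livers, and 33.7 ± 3.14 CPM in fasted KO and 11.8 ± 1.57 CPM in fasted WT livers (SD, n = 4). Rpl12, a ribosomal protein, averaged 95.1 ± 11.0 CPM in fed KO and 54.3 ± 4.34 CPM in fed WT livers, and 78.9 ± 3.46 CPM in fasted KO and 44.8 ± 3.81 CPM in fasted WT livers. Of the 10 genes, Ccng1 (0.947) and Eda2r (0.925) ran closest to their common mean, and Sesn1 (-0.351) ran against it; each gene is part of that mean. Zmat3 (0.809), Bax (0.808) and Aen (0.784) came next, ahead of Phlda3 (0.687), Cdkn1a (0.674), Trp53inp1 (0.647) and Mdm2 (0.532).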
